A study of Homo sapiens with 6 samples.

Results

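HSP90 is the abundant cytosolic chaperone that finishes the folding of kinases, steroid receptors and other client proteins, and it works through co-chaperones that load clients, steer its ATPase cycle or add an activity of their own. The genes described here are the 10 of 40111 in the deposited table whose symbols are HSP90AA1, HSP90AB1, AHSA1, STIP1, CDC37, PTGES3, FKBP4, FKBP5, CHORDC1 and UNC45A, chosen by name, and all 10 passed the filter on low values. They were measured by RNA-seq in 3 libraries of BE(2)-M17 cells, labelled neuroblast, with a CRISPR-Cas9 knockdown of the long non-coding RNA LINC00894, and in 3 control libraries of the same line labelled NC. The labels name no guide, do not say whether the knockdown was a clone or a pool, and do not tell separate cultures from repeat libraries, so that p-values cover only the spread among the libraries at hand, possibly technical.

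HSP90 cycles between an open state and an ATP-bound closed state. STIP1, also called HOP, hands clients over from HSP70, CDC37 brings in protein kinases, AHSA1 stimulates the ATPase, and PTGES3, also called p23, holds the closed state. FKBP4 and FKBP5 are immunophilins that compete for receptor complexes, CHORDC1 is a zinc-binding co-chaperone, and UNC45A serves the folding of myosin. Transcription of many of these genes is driven by the heat shock factor HSF1, which binds runs of alternating GAA and TTC units, while FKBP5 is known as a target of the glucocorticoid receptor.

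Promoter sequences are shown for members with and without a run of such units. Windows of 250 bases before each RefSeq transcript start (GRCh38.p14) were read on the gene's own strand for 9 of the 10 genes; FKBP4 had no entry. They were searched for 3 alternating GAA and TTC units with NN, any 2 bases, between neighbours, starting with either unit, which covers both strands. HSP90AA1, HSP90AB1 and CHORDC1 held such a match, or 33.3% of the 9 genes, against 152 of 27305 genes, or 0.557%, over all promoters in the table, and matches may overlap each other. Capitals mark the matched bases, and AHSA1 is shown as a member whose windows held none.
HSP90AA1, the downstream of its 2 windows, chr14:102087045-102087294, minus strand: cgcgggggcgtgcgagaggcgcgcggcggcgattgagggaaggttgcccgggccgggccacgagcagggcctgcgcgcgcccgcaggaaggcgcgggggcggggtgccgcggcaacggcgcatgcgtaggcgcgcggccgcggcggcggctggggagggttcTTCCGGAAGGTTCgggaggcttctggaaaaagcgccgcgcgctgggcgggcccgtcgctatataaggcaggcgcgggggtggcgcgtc
HSP90AB1, the most downstream of its 3 windows, chr6:44247693-44247942, plus strand: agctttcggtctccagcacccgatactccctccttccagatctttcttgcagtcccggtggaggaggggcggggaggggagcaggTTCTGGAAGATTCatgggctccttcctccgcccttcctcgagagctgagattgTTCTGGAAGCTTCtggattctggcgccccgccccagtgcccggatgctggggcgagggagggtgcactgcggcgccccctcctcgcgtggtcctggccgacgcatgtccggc
CHORDC1, its only window, chr11:90223050-90223299, minus strand: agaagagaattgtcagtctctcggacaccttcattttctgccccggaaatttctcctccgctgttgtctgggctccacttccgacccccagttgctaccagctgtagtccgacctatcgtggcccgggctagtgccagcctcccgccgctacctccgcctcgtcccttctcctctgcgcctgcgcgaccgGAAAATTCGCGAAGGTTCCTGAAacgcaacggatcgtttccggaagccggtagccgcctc
AHSA1, the downstream of its 2 windows, chr14:77457843-77458092, plus strand: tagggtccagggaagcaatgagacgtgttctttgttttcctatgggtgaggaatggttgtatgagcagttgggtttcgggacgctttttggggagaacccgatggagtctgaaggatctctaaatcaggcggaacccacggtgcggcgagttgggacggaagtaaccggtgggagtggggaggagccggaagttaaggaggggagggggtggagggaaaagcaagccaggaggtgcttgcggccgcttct

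Counted from the transcript start, the match in HSP90AA1 lay at -88 to -76. HSP90AB1 held separate matches at -165 to -153 and at -112 to -100. In CHORDC1 3 matches overlapped into a single run of 5 units, at -60 to -48, -55 to -43 and -50 to -38. A match is a run of letters and not a measured binding site, and a window without it says nothing about HSF1 at that gene.

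Values per library are FPKM, reads per kilobase of gene model and per 1e+06 assigned reads. Levels compare between genes only as far as the gene models match the transcripts expressed. The implied gene model lengths of the members ran from 2944 bases for AHSA1 to 11099 bases for CHORDC1. In knockdown 1 CHORDC1 had 8833 reads and 34.8 FPKM, and AHSA1 had 7488 reads and 111 FPKM. Depth lay between 22898079 and 28782977 assigned reads in the knockdowns and between 29276653 and 48089716 in the controls, and the members rested on between 1390 and 119083 reads per library. LINC00894, annotated as an antisense gene, so that reads of genes on the other strand could be counted in it, measured 1.10, 1.30 and 0.867 FPKM in knockdowns 1, 2 and 3, against 2.00, 2.24 and 2.21 FPKM in controls 1, 2 and 3, a fall with a log2 fold change of -0.93 (SE 0.17) and an adjusted p of 0.0406 in limma. In bulk RNA, fewer cells with a transcript and less of it per cell cannot be told apart, for this and every gene below. Control 1 stood apart from the other controls, and in 60.8% of 18548 genes tested it was closer to the average knockdown than to the average of controls 2 and 3, and results are therefore given with and without it. Of 14 neuroblast markers, 2 were not analysed here. Of the 12 measured, only 5 passed the filter on low values, so most of the list was near or below it. The markers named next were mixed. PHOX2A was at most 0.0389 FPKM and MYCN, known to be amplified in this line, between 0.162 and 0.267 FPKM in the knockdowns and between 0.168 and 0.235 FPKM in the controls. GATA2 was present at between 27.1 and 29.7 FPKM in the knockdowns and between 16.2 and 24.9 FPKM in the controls. GATA3 lay between 5.21 and 5.58 FPKM in the knockdowns and between 4.12 and 5.07 FPKM in the controls, ISL1 between 4.55 and 5.66 FPKM in the knockdowns and between 3.80 and 5.55 FPKM in the controls, and HAND2 between 1.26 and 1.71 FPKM in the knockdowns and between 1.33 and 1.49 FPKM in the controls. PHOX2A and MYCN thus go against the neuroblast label, while GATA2, GATA3, ISL1 and HAND2 were detected, and 0 of 5 markers tested passed in limma. Blood markers, 14 genes, summed to between 519 and 902 FPKM in the knockdowns and to 8.56, 4.75 and 316 FPKM in controls 1, 2 and 3, led by HBB and S100A9, and 3 of 8 tested rose, HBB, HBA1 and HBA2, with limma adjusted p of 0.0456, 0.0284 and 0.0379. Over all genes, limma called 4.14% higher and 2.06% lower. Under median-of-ratios scaling HBB missed the threshold, at a limma adjusted p of 0.0506. Of Schwann and glial markers 1 was tested, of fibroblast and endothelial markers 2, and 0 of them passed in limma. Their part in the results for HSP90 genes was not tested.

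Transcripts of HSP90 itself were the most abundant of the set, and both genes measured higher in every knockdown library than in any control, without passing the test over all genes. HSP90AB1, the largely constitutive beta form, stood at 1271, 1069 and 1108 FPKM in knockdowns 1, 2 and 3, against 935, 593 and 516 FPKM in controls 1, 2 and 3. Control 1 was the highest control and stayed under every knockdown. HSP90AB1 had a log2 fold change of 0.80 (SE 0.22, n = 3 in each group, limma adjusted p = 0.0741). HSP90AA1, the more inducible alpha form, stood at 937, 742 and 812 FPKM in the knockdowns, against 688, 478 and 447 FPKM in the controls. The same order held, with control 1 closest to knockdown 2. Its log2 fold change was 0.65 (SE 0.18, n = 3 in each group, with a limma adjusted p of 0.0755). Without control 1 the log2 fold changes were 1.05 for HSP90AB1 and 0.84 for HSP90AA1, with limma adjusted p of 0.00143 and 0.00266. GENCODE 29 on GRCh38 places HSP90AB1 (ENSG00000096384) on chromosome 6 from 44246166 to 44253888 and HSP90AA1 (ENSG00000080824) on chromosome 14 from 102080738 to 102139699.

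**Figure D1:**
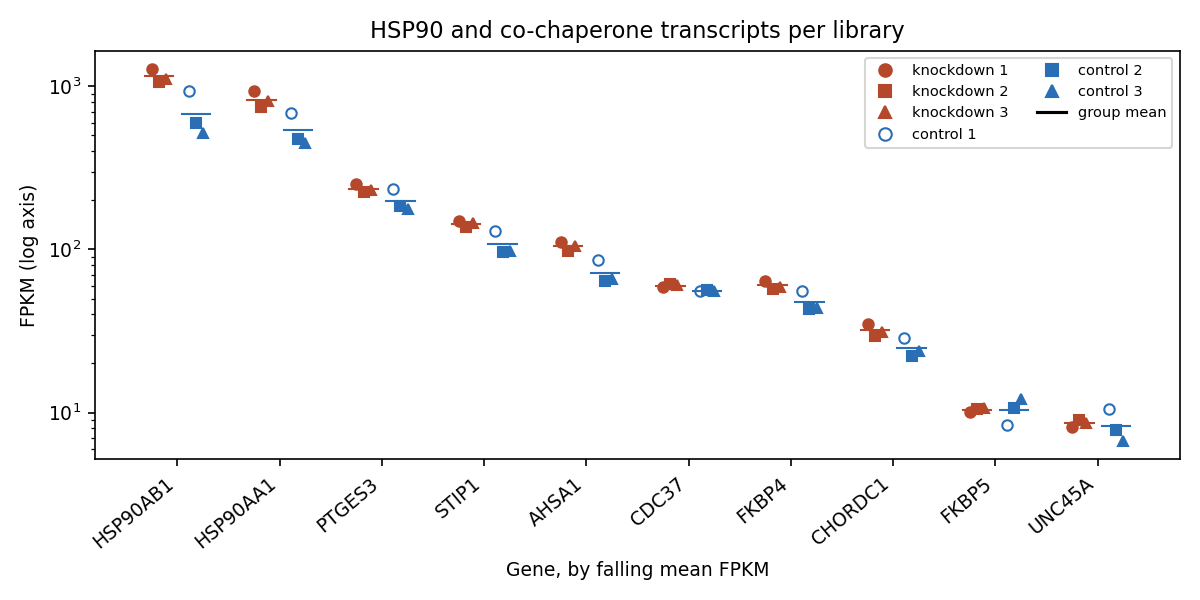
FPKM of the 10 genes in each of the 3 knockdown libraries (left, red) and 3 control libraries (right, blue), on a log axis, with a line at each group mean and control 1 as an open circle. HSP90AB1, HSP90AA1, STIP1, AHSA1, FKBP4, CHORDC1 and CDC37 have all 3 knockdowns above all 3 controls; PTGES3, FKBP5 and UNC45A overlap.

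Co-chaperones of the ATPase cycle and of client transfer also measured higher in the knockdowns, short of the threshold. AHSA1, the ATPase activator, had the smallest p of the 10 genes and measured 111, 98.0 and 104 FPKM in the knockdowns, against 85.8, 63.8 and 65.8 FPKM in the controls. The groups did not overlap, and control 1 was the highest control. Its log2 fold change of 0.55 (SE 0.12) had an adjusted p of 0.052 in limma, just short of the threshold of 0.05. STIP1, the HSP70 to HSP90 adaptor, measured 149.6, 137 and 145 FPKM in the knockdowns, against 130.1, 96.3 and 97.9 FPKM in the controls, a log2 fold change of 0.43 (SE 0.13, adjusted p = 0.0815 in limma). Control 1 was again the highest control, under every knockdown. PTGES3, which stabilises the closed state, read 254, 224 and 230 FPKM in the knockdowns, against 234, 185 and 178 FPKM in the controls. Here the groups overlapped, since control 1 exceeded knockdowns 2 and 3, and the log2 fold change of 0.25 (SE 0.12) had an adjusted p of 0.194 in limma. AHSA1 (ENSG00000100591) lies on chromosome 14 from 77457870 to 77469474, STIP1 (ENSG00000168439) on chromosome 11 from 64185272 to 64204543, and PTGES3 (ENSG00000110958) on chromosome 12 from 56663341 to 56688408.

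CDC37, the kinase-loading co-chaperone, varied least within both groups. It measured 58.6, 61.3 and 60.2 FPKM in the knockdowns, against 55.4, 56.4 and 55.3 FPKM in the controls. The groups did not overlap, but the log2 fold change was only 0.11 (SE 0.05, adjusted p = 0.209 in limma), and it was -0.015 with median-of-ratios scaling. CDC37 was also the single member whose control 1 lay nearer to controls 2 and 3 than to the knockdown mean. Its coefficient of variation was 2.27% in the knockdowns and 1.15% in the controls, whereas that of HSP90AB1 was 9.33% and 32.7%. CDC37 (ENSG00000105401) lies on chromosome 19 from 10391134 to 10420121.

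The 2 immunophilins differed in how their groups lay. FKBP4, also called FKBP52, measured 64.3, 57.4 and 58.7 FPKM in the knockdowns, against 55.9, 42.9 and 43.7 FPKM in the controls, without overlap (log2 fold change 0.35, SE 0.12, adjusted p = 0.0986 in limma). FKBP5, also called FKBP51, measured 10.1, 10.5 and 10.7 FPKM in the knockdowns, against 8.33, 10.7 and 12.1 FPKM in the controls. The knockdown values of FKBP5 fell inside the range of the controls, of which control 1 was the lowest and control 3 the highest. Its log2 fold change was 0.02 (SE 0.14, adjusted p = 0.918 in limma), and it was -0.097 with median-of-ratios scaling and -0.12 without control 1. FKBP4 (ENSG00000004478) lies on chromosome 12 from 2794953 to 2805423, and FKBP5 (ENSG00000096060) on chromosome 6 from 35573585 to 35728583.

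CHORDC1, whose promoter window held the 5-unit run shown above, measured 34.8, 29.6 and 31.3 FPKM in the knockdowns, against 28.8, 22.2 and 23.8 FPKM in the controls. Its groups did not overlap, with control 1 just under knockdown 2, and the log2 fold change was 0.36 (SE 0.11, adjusted p = 0.093 in limma). UNC45A, the myosin co-chaperone, was the least abundant member, at 8.10, 9.04 and 8.62 FPKM in the knockdowns, against 10.5, 7.80 and 6.70 FPKM in the controls. Control 1 was the highest of all 6 libraries for UNC45A, and the log2 fold change was 0.07 (SE 0.16, adjusted p = 0.797 in limma), with -0.054 under median-of-ratios scaling, -0.075 without control 3 and 0.24 without control 1. CHORDC1 (ENSG00000110172) lies on chromosome 11 from 90201160 to 90223364, and UNC45A (ENSG00000140553) on chromosome 15 from 90930180 to 90954093.

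Across the 10 genes, limma called 0 higher and 0 lower at an adjusted p under 0.05, where 4.14% of all genes tested were called higher and 2.06% lower. At an unadjusted p under 0.05 there were 6, all higher, against 32.6% of all genes in either direction. All 3 knockdowns lay above all 3 controls in 7 of the 10 and below them in 0, against 23.9% and 14.3% of all genes. The members were chosen with earlier results of these data known, which limits every comparison with the share of all genes. All 10 log2 fold changes were above 0, as were 57.6% over all genes, but those of CDC37, FKBP5 and UNC45A turned with the scaling. The median over the members was 0.35, beside 0.07 over all genes tested. Limma-voom on the recovered reads called 4 of the 10 higher, AHSA1, HSP90AB1, HSP90AA1 and STIP1, with adjusted p of 0.0238, 0.0331, 0.0341 and 0.0425, where it called 12.4% of all genes higher and 4.50% lower. Without control 1, limma called 7 higher, those of the 10 other than CDC37, FKBP5 and UNC45A, where 28.0% of all genes were called higher and 15.7% lower. Leaving out any other library left 0 genes called over the whole table, so no call made in limma with all 6 libraries, here or for the further genes below, held when a library other than control 1 was left out.

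The authors' deposited table gives smaller fold changes for the same genes. In the authors' deposited table HSP90AB1 had a log2 fold change of 0.65 with an adjusted p of 0.0044, HSP90AA1 had 0.51 with 0.0115, and AHSA1 had 0.43 with 0.0104. These 3 of 10 were called higher there and 0 lower, where the authors' deposited table calls 3.23% of 40090 genes higher and 4.22% lower. The other 7 were not called in the authors' deposited table, with STIP1 at 0.30 and an adjusted p of 0.111, and with CDC37, UNC45A and FKBP5 at -0.02, -0.07 and -0.12. The test behind these p-values is not stated. In limma, the median of all genes was 0.07 under total-read scaling and -0.05 with median-of-ratios size factors. Relative to that median HSP90AB1 stood at 0.73 under total-read scaling and at 0.72 under median-of-ratios scaling. Under median-of-ratios scaling limma gave log2 fold changes of 0.68 for HSP90AB1, 0.52 for HSP90AA1 and 0.43 for AHSA1, close to the authors' values. How the authors scaled their libraries is not stated, and the part of scaling in their smaller fold changes was not tested.

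**Figure D2:**
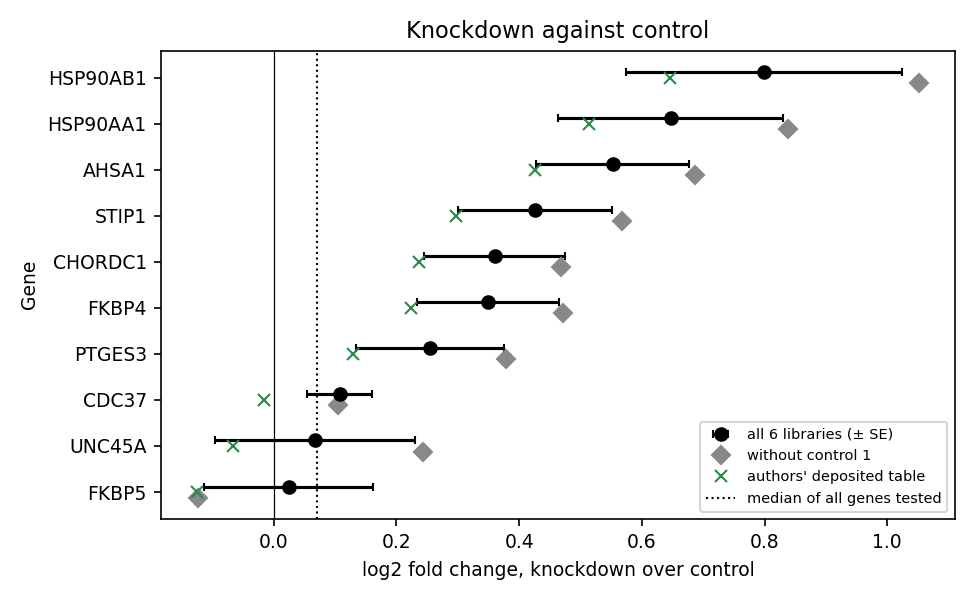
Log2 fold change of knockdown over control for the 10 genes (x axis), with all 6 libraries (black, ± SE), without control 1 (grey diamonds) and in the authors' deposited table (green crosses); the dotted line is the median of all genes tested, 0.07. HSP90AB1 lies highest at 0.80, with 1.05 without control 1 and 0.65 in the authors' deposited table, and FKBP5 lowest at 0.02.

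The order of abundance by FPKM, which depends on the gene model lengths, was nearly the same in both groups. In the knockdowns it ran HSP90AB1, HSP90AA1, PTGES3, STIP1, AHSA1, FKBP4, CDC37, CHORDC1, FKBP5 and UNC45A, with means of 1150, 830.3, 236, 144, 105, 60.2, 60.0, 31.9, 10.4 and 8.58 FPKM, and FKBP4 and CDC37 were the only neighbours whose ranges overlapped. In the controls CDC37, at a mean of 55.7 FPKM, stood before FKBP4 at 47.5 FPKM, and the ranges overlapped for HSP90AB1 and HSP90AA1, for CDC37 and FKBP4, and for FKBP5 and UNC45A. Together the 10 genes made up 1.06%, 0.899% and 0.940% of all FPKM in knockdowns 1, 2 and 3, against 0.807%, 0.567% and 0.529% in controls 1, 2 and 3. HSP90 itself accounted for most of that, with sums of 2208, 1812 and 1919 FPKM in the knockdowns and 1622, 1071 and 963 FPKM in the controls.

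The balance between HSP90 forms and co-chaperones within a library needs no scaling between libraries, but its level depends on the gene model lengths. The summed FPKM of the 8 co-chaperones was 0.313, 0.346 and 0.338 of that of HSP90AA1 and HSP90AB1 in knockdowns 1, 2 and 3, against 0.375, 0.453 and 0.501 in controls 1, 2 and 3. All knockdowns were below all controls, and on the log2 scale the difference was -0.41 (two-sided exact permutation p = 0.1, which is the smallest p that 3 against 3 libraries allow), and -0.52 without control 1. The ratio of HSP90AA1 to HSP90AB1 was 0.737, 0.694 and 0.733 in the knockdowns, against 0.736, 0.805 and 0.867 in the controls. Control 1 fell within the knockdowns, and the log2 difference of -0.15 had a two-sided exact permutation p of 0.2, with -0.21 without control 1. Reads that HSP90AA1 and HSP90AB1 share with near-identical copies make these levels uncertain. Of 28 listed copies of the members, 5 were tested, and HSP90AA2P, a copy of HSP90AA1, rose, with 29.7, 22.9 and 23.4 FPKM in the knockdowns and 16.3, 11.97 and 13.6 FPKM in the controls (log2 fold change 0.86, SE 0.15, adjusted p = 0.0379 in limma). HSP90AB3P, a copy of HSP90AB1, had 0.88, and PTGES3P1, at 50.1 FPKM in knockdown 3, had 0.39, with limma adjusted p of 0.0603 and 0.111. The median over the 5 was 0.69, and limma called 4.14% of all genes higher and 2.06% lower.

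**Figure D3:**
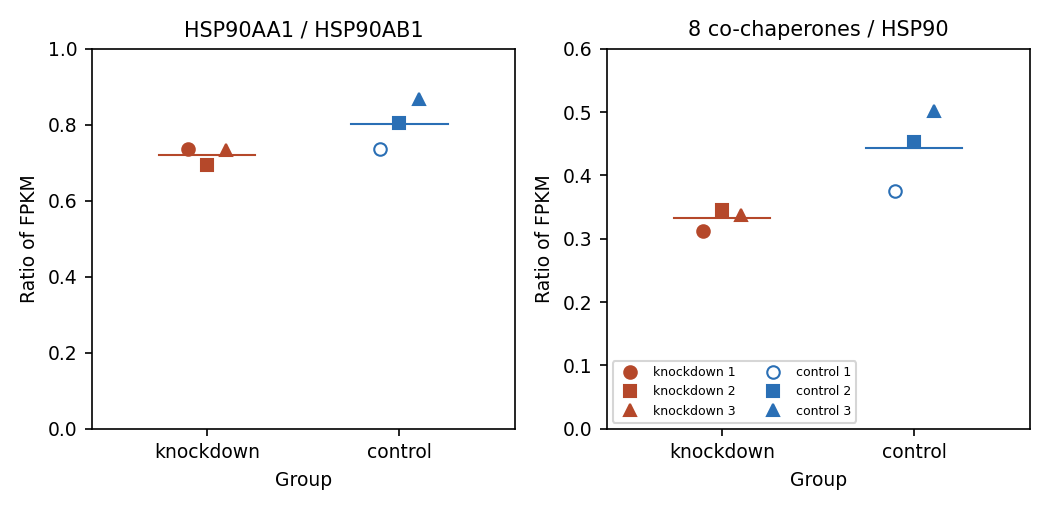
Ratio of HSP90AA1 to HSP90AB1 (left) and of the summed 8 co-chaperones to the summed 2 HSP90 genes (right), from FPKM within each library, by group, with a line at each group mean; symbols mark libraries 1 (circle), 2 (square) and 3 (triangle), and control 1 is open. The co-chaperone ratio is 0.313 to 0.346 in the knockdowns and 0.375 to 0.501 in the controls, and the form ratio of control 1, 0.736, falls among the knockdowns.

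Heat shock induced genes, taken as a sum, measured highest in the knockdowns and in control 1, but no single gene passed in limma on log2 FPKM. Of 24 listed genes, all tested, 0 passed in either direction in limma over all genes, 16 had an unadjusted p under 0.05, where 32.6% of all genes did, and the median log2 fold change was 0.82. Their summed level was 3614, 2955 and 3194 FPKM in knockdowns 1, 2 and 3, against 3209, 1363 and 1310 FPKM in controls 1, 2 and 3. The sum in control 1 fell among those of the knockdowns. Of the 24, 21 had a log2 fold change above 0, as did 57.6% of all genes. All knockdowns lay above all controls in 9 and below them in 2, against 23.9% and 14.3% of all genes. The list, like the members, was chosen with earlier results of these data known. HSPB8, CHAC1 and FKBP14, chosen after their values were seen, ran the other way, at -0.53, -0.38 and -0.05. HSPB8, a small heat shock protein, measured 10.9, 9.45 and 10.2 FPKM in the knockdowns, against 9.596, 17.1 and 19.5 FPKM in the controls. The smallest p values belonged to DNAJA1, an HSP40 co-chaperone, at 0.94 (SE 0.22), the mitochondrial ribosomal protein gene MRPL18 at 0.96 (SE 0.25), HSPA4L, an HSP110 relative, at 0.37 (SE 0.11), HSPD1, mitochondrial HSP60, at 0.70 (SE 0.21), SERPINH1, the collagen chaperone, at 0.96 (SE 0.28), and DEDD2 at 1.58 (SE 0.49), with limma adjusted p between 0.0552 and 0.0884. Limma-voom on the recovered reads called 10 of the 24 higher and 0 lower, where it called 12.4% of all genes higher and 4.50% lower. In the authors' deposited table DNAJA1, MRPL18, SERPINH1 and HSPD1 were called higher, with adjusted p of 0.00034, 0.0018, 0.0052 and 0.0144. HSPA4L and DEDD2 were not called there, with adjusted p of 0.185 and 0.231. Without control 1, 20 of the 24 were called higher and 1 lower, where 28.0% of all genes were called higher and 15.7% lower. Of the 21 with a promoter entry, 4, or 19.0%, held the 3-unit element.

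The place of control 1 between the other controls and the knockdowns varied from gene to gene. Over the heat shock list, the median step from controls 2 and 3 up to control 1 was 0.95 log2 units and that from control 1 up to the knockdown mean was 0.07. For HSP90AB1 the same steps were 0.76 and 0.29, for HSP90AA1 0.57 and 0.26, and for AHSA1 0.40 and 0.28. They were 0.42 and 0.14 for STIP1, 0.37 and 0.10 for FKBP4, and 0.33 and 0.14 for CHORDC1, while PTGES3 had 0.37 and 0.01. Among heat shock genes DNAJA1 had 0.75 and 0.44, MRPL18 0.91 and 0.35, SERPINH1 1.04 and 0.27, and HSPD1 0.73 and 0.22. These were drawn from the genes with the smallest p, which favours a larger second step than the list median of 0.07. The HSP70 genes of the list were chosen after their values were seen. HSPA1A had 2.89 and -0.35, HSPA1B 2.17 and -0.16, HSPA8 1.07 and -0.20, and HSPA6 7.20 and 0.08. UNC45A took the step within the controls but not beyond it, at 0.53 and -0.29, and FKBP5 ran the other way within the controls, at -0.45 and 0.32. These steps are descriptions with no test. The part of the heat shock state of single libraries in the group difference was not tested.

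**Figure D4:**
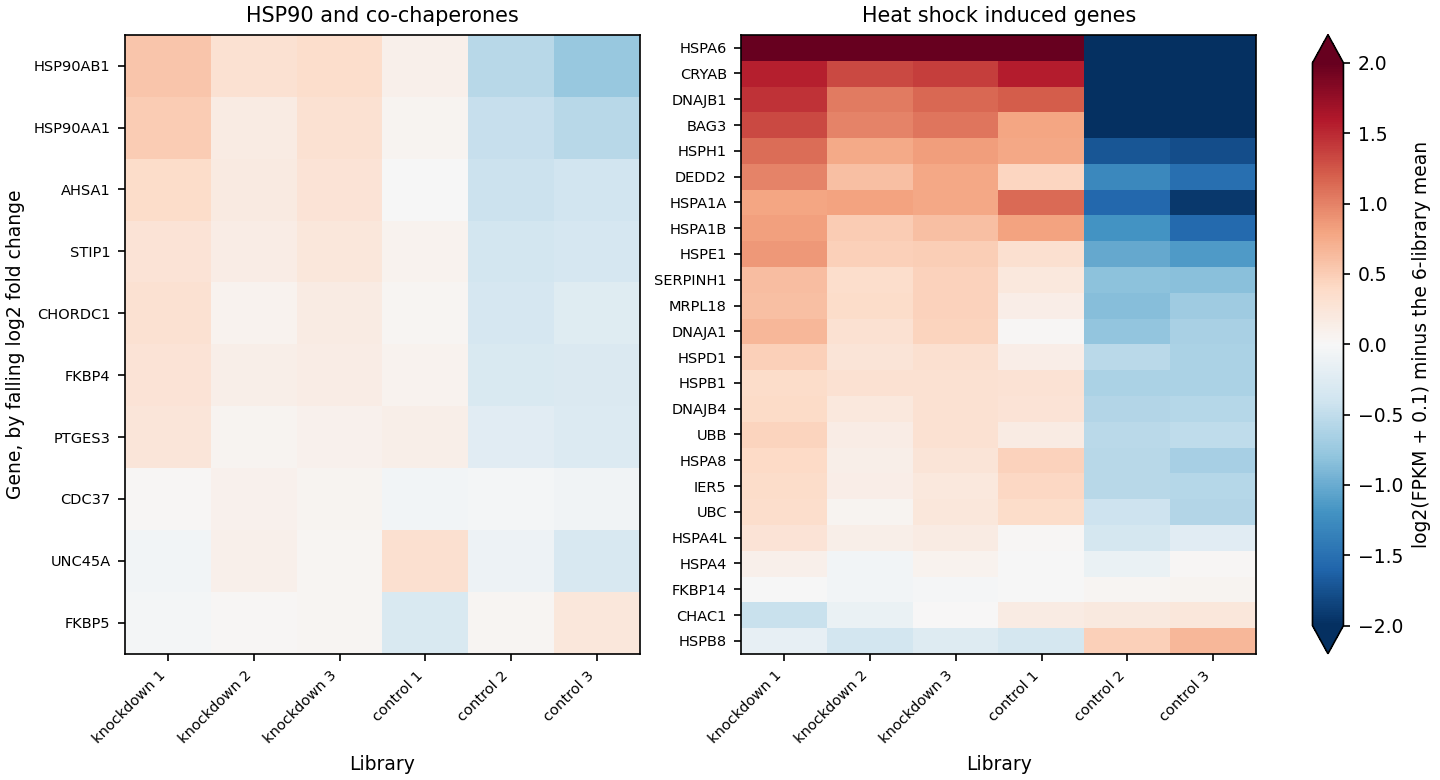
Colour map of log2(FPKM + 0.1) minus the 6-library mean of each gene, for the 10 members (left) and 24 heat shock induced genes (right), in knockdowns 1 to 3 and controls 1 to 3; values beyond 2 take the end colour. Most heat shock genes are high in the knockdowns and in control 1 and low in controls 2 and 3, while HSP90AB1, HSP90AA1 and AHSA1 have control 1 near the mean.

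Profiles over the 6 libraries were compared with that of HSP90AA1 for 2097 genes with a mean of at least 20 FPKM. Outside the set, genes whose symbol is a clone or locus identifier were left out of the ranking. Of the rest BCLAF1 was most like HSP90AA1, with a root mean square difference of 0.02 log2 units between mean-centred profiles. TRA2A followed at 0.03, FAM53C at 0.04, and NCOA4, AKAP17A and SLU7 at 0.05 each. BCLAF1 measured 55.3, 45.7 and 49.1 FPKM in the knockdowns, against 41.2, 28.3 and 26.9 FPKM in the controls. The nearest members were AHSA1 at 0.10 and HSP90AB1 at 0.11, and CDC37 was at 0.35.

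Among further co-chaperones 2 genes rose in limma on log2 FPKM. Of 34 listed, 32 were tested, 2 rose, 0 fell and 30 did not pass in limma, with a median log2 fold change of 0.16. The same fit called 4.14% of all genes higher and 2.06% lower, so 2 of 32 is near the share of all genes. RUVBL2, an ATPase of the R2TP complex that works with HSP90, measured 39.5, 41.9 and 40.8 FPKM in the knockdowns, against 34.2, 32.8 and 33.0 FPKM in the controls (log2 fold change 0.29, SE 0.06, adjusted p = 0.0417 in limma). PPID, the cyclophilin 40 immunophilin, measured 36.0, 34.0 and 32.3 FPKM in the knockdowns, against 28.4, 24.5 and 24.2 FPKM in the controls (0.41, SE 0.08, adjusted p = 0.0458 in limma). Under median-of-ratios scaling both missed the threshold, with limma adjusted p of 0.125 for RUVBL2 and 0.0586 for PPID, and 1 gene of the list, TELO2, a subunit of the TTT complex, was called lower instead (log2 fold change -0.39, adjusted p = 0.0449 in limma). Next by p came PPP5C, an HSP90-bound phosphatase, at -0.43, TOMM34, which links HSP70 and HSP90 for mitochondrial import, at 0.32, AHSA2P, a relative of AHSA1, at -0.54, and FNIP1, a brake on the ATPase, at 0.58, with limma adjusted p between 0.0509 and 0.0626. AHSA2P is annotated as a transcribed pseudogene, so its level need not stand for a working co-chaperone. It measured lower in the knockdowns, at between 8.58 and 8.78 FPKM, against between 10.7 and 15.4 FPKM in the controls, where AHSA1 measured higher. NUDC and CACYBP had the largest log2 fold changes of the list, 0.94 and 0.89, without passing (limma adjusted p of 0.0658 and 0.0628), and were chosen after their values were seen. Limma-voom on the recovered reads called 7 of the 32 higher and 2 lower, beside 12.4% and 4.50% of all genes. The authors' deposited table did not call RUVBL2, PPID or TOMM34, with adjusted p of 0.429, 0.0869 and 0.307. It called NUDC, CACYBP and FNIP1 higher, with adjusted p of 0.0017, 0.0018 and 0.0199. PPP5C, AHSA2P and TELO2 were called lower there, with adjusted p of 0.0015, 0.00055 and 0.0183. Without control 1, 12 of the 32 were called higher and 7 lower, beside 28.0% and 15.7% of all genes.

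**Figure D5:**
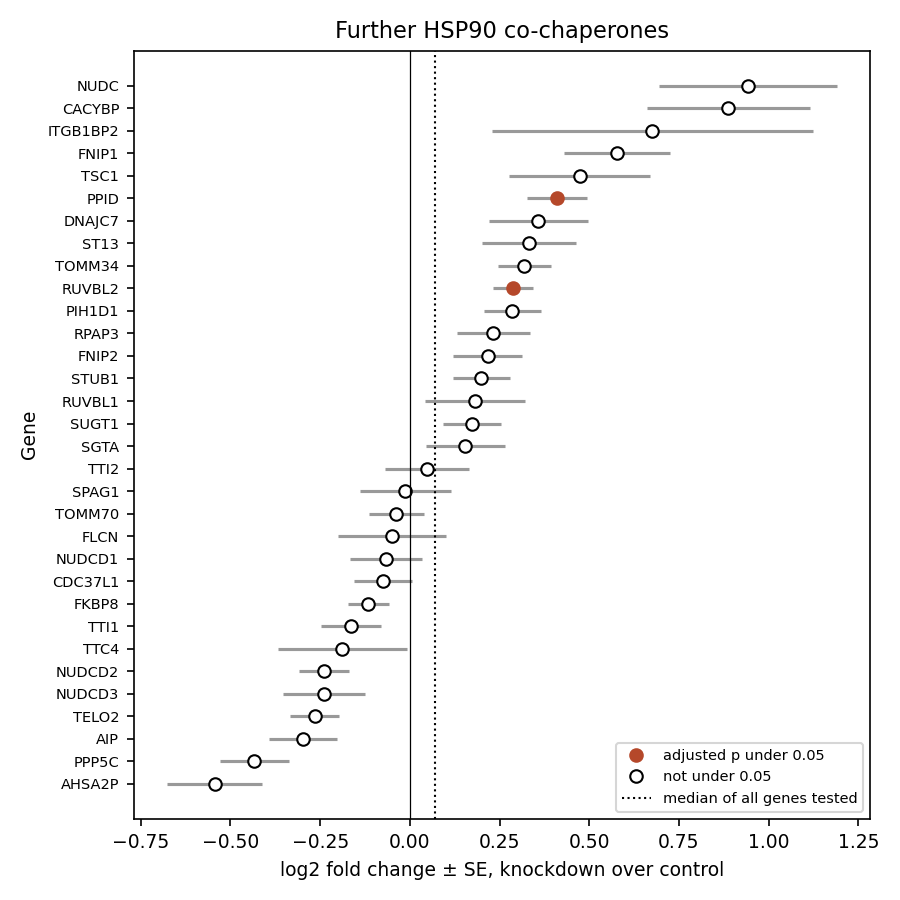
Log2 fold change of knockdown over control with SE for the 32 further co-chaperones tested, sorted by value; filled points passed an adjusted p of 0.05 and the dotted line is the median of all genes tested. RUVBL2 and PPID are filled, NUDC lies highest at 0.94 and AHSA2P lowest at -0.54.

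HSP90 forms of other compartments did not pass with all 6 libraries. HSP90B1, the endoplasmic reticulum form known as GRP94, measured 67.6, 68.6 and 70.2 FPKM in the knockdowns, against 84.7, 63.9 and 54.4 FPKM in the controls, with the knockdowns inside the control range (log2 fold change 0.05, SE 0.16, adjusted p = 0.85 in limma). TRAP1, the mitochondrial form, measured 23.4, 26.7 and 25.3 FPKM in the knockdowns, against 23.8, 30.2 and 29.7 FPKM in the controls (-0.14, SE 0.11, adjusted p = 0.392 in limma). Without control 1 TRAP1 was called lower, at -0.25 with a limma adjusted p of 0.0244, and HSP90B1 had 0.22 with 0.055. Whether these differences depart from those of HSP90AA1 and HSP90AB1 was not tested.

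Of the genes encoding HSP90 clients, no kinase and 1 listed receptor passed in limma, where 4.14% of all genes were called higher and 2.06% lower. Of 24 client kinases tested, 0 passed in limma and 4 had an unadjusted p under 0.05, beside 32.6% of all genes, with a median of -0.03; PLK1, the mitotic kinase, had 0.60, and CHEK1, LIMK1 and ARAF had -0.31, -0.21 and -0.18. Of 11 receptors and transcription factors tested, 1 fell and 0 rose, with a median of 0.03. The gene that fell was NR2F1, an orphan nuclear receptor that stands in the list as a receptor and not as a well-known client, at 7.98, 9.06 and 8.11 FPKM in the knockdowns and 12.8, 11.05 and 11.99 FPKM in the controls (log2 fold change -0.50, SE 0.09, adjusted p = 0.0379 in limma). HSF1 and the glucocorticoid receptor gene NR3C1, chosen after their values were seen, each had 0.09. Limma-voom on the recovered reads called 1 kinase higher and 1 lower, and 0 receptors and factors higher and 1 lower. It called 12.4% of all genes higher and 4.50% lower. Without control 1, 4 kinases were called higher and 3 lower, and 2 receptors and factors higher and 1 lower, shares near or below the 28.0% and 15.7% of all genes.

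Glucocorticoid receptor targets, listed because FKBP5 belongs to that programme, gave 1 fall and 0 rises among 12 tested in limma on log2 FPKM, with a median of -0.08. With all 6 libraries, 2.06% of all genes were called lower and 4.14% higher. KLF9 fell, at 17.9, 20.2 and 18.2 FPKM in the knockdowns and 27.2, 24.9 and 27.7 FPKM in the controls (log2 fold change -0.50, SE 0.08, adjusted p = 0.0372 in limma). ERRFI1 and TFCP2L1 had -0.38 and -0.27, while MT1X, MT2A and SGK1 had 0.91, 0.52 and 0.95. None of these passed in limma on log2 FPKM with all 6 libraries and total-read scaling. Limma-voom on the recovered reads called 2 of the 12 higher and 4 lower, beside 12.4% and 4.50% of all genes. Its adjusted p was 0.028 for ERRFI1, 0.0409 for TFCP2L1, 0.035 for MT1X, 0.0415 for MT2A and 0.0564 for SGK1. ERRFI1 passed under median-of-ratios scaling, at a limma adjusted p of 0.0399. Without control 1 these 5 all passed, and 4 of the 12 were called higher and 4 lower, beside 28.0% and 15.7% of all genes.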

How the data were processed

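RNA was profiled in 3 knockdown and 3 control libraries, grouped by their titles. The submitters' processing notes name HISAT2 without a version, and counter, build and annotation are not stated there. Per library the authors deposited FPKM, judged from the values, and per the file headers, a mean read signal for each group, a log2 fold change and p-values. Whole reads were recovered from FPKM and group means: 99.8% of values above 0 were whole within 0.1 read, and 0 columns matched no sample. The labels' protocol mentions no strand marking, so overlapping and antisense genes may share reads.

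A gene was tested if 3 or more of the 6 libraries reached 0.5 FPKM. Values entered limma 3.58.1 under R 4.3.3 as log2(FPKM + 0.1), trend included, which understates changes of low genes. P-values were two-sided and adjusted by Benjamini-Hochberg over 18548 genes. Ratios used an exact permutation test. The fit was tested on simulated data. Other tables used Python 3.11.15 and pandas 2.3.3. Promoters came from RefSeq and gene coordinates from GENCODE 29.

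Members and lists were chosen with earlier results of these data known. Named were all members, in each list the 6 lowest p-values at most, and the 6 profiles nearest HSP90AA1, clone and locus identifiers left out. The alternatives were another scaling, pseudocount, filter, trend or test, the replicate block and each library left out. Some listed genes are not reported here.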

Additional observations from a re-analysis of the deposited data

How the results depend on the processing

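Of 120 values of single members under the 12 alternatives, 103 kept direction and side of the threshold, 12 became significant and 5 reversed, all in CDC37, FKBP5 and UNC45A. With median-of-ratios scaling CDC37, FKBP5 and UNC45A had -0.015, -0.097 and -0.054. When a library was left out, FKBP5 lay between -0.12, without control 1, and 0.15, and UNC45A between -0.075, without control 3, and 0.24, without control 1. Members called higher were 1 with a pseudocount of 1 FPKM (AHSA1), 4 in limma-voom and between 0 and 7 when a library was left out, the 7 without control 1. Over all genes, 768 rose and 382 fell. Rises numbered 338 with median-of-ratios scaling, where 495 fell. Rises and falls were 25 and 17 with no filter, 65 and 26 with no trend, and 2295 and 835 in limma-voom. Leaving out a library gave between 0 and 5187 rises and between 0 and 2906 falls, with 0 for every library except control 1; at an unadjusted p under 0.05 those without control 1 numbered 9704, and the others between 3676 and 4530. Leaving out control 1 removes spread among the controls. The causes were not tested.

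The replicate numbers were not shown to pair the libraries: deviations of same-numbered libraries correlated at 0.15, 0.08 and 0.04. With the replicate number as a block limma called 0 rises and 0 falls, 5990 genes had an unadjusted p under 0.05, and the smallest adjusted p was 0.0541. For the ratio differences of -0.15 and -0.41, which a block cannot move in a balanced design, the exact sign-flip p under the block was 0.5 and 0.25, and 0.25 is the smallest that 3 pairs allow. Leaving out a library kept both negative, between -0.21 and -0.09 for HSP90AA1 to HSP90AB1 and between -0.52 and -0.31 for co-chaperones to HSP90.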
